A study of Mus musculus with 6 samples.

Results

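The genes described here are 10 endothelial genes tied to the response to blood flow and to vascular tone: the transcription factors Klf2, Klf4 and Klf6, the nitric oxide genes Nos3, Cav1, Ddah1 and Ddah2, and the endothelin genes Edn1, Ece1 and Ednrb. They were taken by symbol from a table of 54429 genes, whatever their values, and all 10 were among the 16065 genes with enough counts to be tested. A single member, Ece1, passed the test and was lower in Meis1-OE EC, as were 2.73% of all tested genes. Ece1 passed in only 7 of 14 alternative fits. The 3 Klf factors lay below the YFP-CTRL mean without passing the test, and Nos3 lay close to that mean.

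Klf2 and Klf4 are zinc-finger factors that laminar flow induces in endothelium through a kinase cascade ending in MEF2 factors. They favour an anti-thrombotic, vasodilator state. In that state the endothelial nitric oxide synthase encoded by Nos3 makes the vasodilator nitric oxide, and the Ddah enzymes protect it by breaking down a methylarginine that inhibits it. Caveolin-1, from Cav1, holds the synthase inactive in caveolae. Endothelin-1, from Edn1, is the opposing vasoconstrictor peptide. It is cut from its precursor by the endothelin-converting enzyme Ece1 and is sensed and cleared by endothelial cells through its receptor Ednrb.

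RNA was sequenced after ribodepletion from primary aortic EC of adult C57BL/6 mice of WT genotype, with 3 libraries of cells that carried a lentiviral Meis1-OE vector and 3 of cells that carried the YFP-CTRL vector. The 2 groups share everything else that the labels give: 100000 cells were plated per gelatin-coated well, transduction ran for 48 h, YFP+CD31+VEC+ cells were sorted at 72 h and grown to confluency again, and 300 to 400 ng of RNA from 300000 cells was used. The protocol names no flow or shear stress treatment, the vector rather than the endogenous locus supplies Meis1, and the gate on CD31 and VEC (the products of Pecam1 and Cdh5) keeps only cells with both proteins. The study calls the libraries independent replicates but does not say that they came from separate animals, so p-values measure the spread between these libraries.

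Libraries are named by the letter of their column in the table and held 34176592 to 47956569 counts. Levels are given as TMM-normalized CPM, each count divided by a library size corrected for composition. Meis1 had 135325 to 157828 counts in the Meis1-OE libraries and 39 to 85 in the YFP-CTRL libraries, so no library went against its label. The YFP-CTRL libraries differed among themselves in Mki67, a marker of dividing cells. Mki67 stepped up from 63.8 to 205 and 589 CPM over YFP-CTRL A, B and C, compared with 672, 660 and 628 CPM in Meis1-OE A, B and C. YFP-CTRL C thus lay nearest to Meis1-OE EC. All 12 endothelial markers passed the filter on low counts. Vwf and Cldn5 were higher in Meis1-OE EC (log2 fold changes 3.12 and 1.81) and Tek was lower (-0.78), with adjusted p = 0.0120, 0.0398 and 0.0351 in the quasi-likelihood test of edgeR, adjusted by Benjamini-Hochberg over all tested genes. Cdh5 and Kdr had no overlap between groups and missed the threshold (-0.70 and -1.23, adjusted p = 0.0535 and 0.0504 from edgeR), and DESeq2 called both lower. Of 5 lymphatic endothelial markers, Lyve1 was present in every library and was lower in Meis1-OE EC (-1.84, adjusted p = 0.0301 from edgeR). Flt4 was also present in every library, at 50.3 to 151 CPM in YFP-CTRL EC and 100.2 to 106 CPM in Meis1-OE EC (0.05, adjusted p = 0.948 from edgeR). Prox1 had at most 2 counts in a library, and Pdpn and Ccl21a were at 0. Of 14 alternative fits, Vwf, Tek and Lyve1 passed in 10 and Cldn5 in 9, all with the same direction. The summed level of 10 smooth muscle and fibroblast markers was 4.03 to 6.06 CPM in Meis1-OE EC and 1.68 to 23.2 CPM in YFP-CTRL EC. It was highest in YFP-CTRL C, where Acta2 alone was at 19.9 CPM. The summed level of 8 macrophage and blood markers stayed under 1 CPM. In bulk RNA, fewer cells that carry a transcript and less of it per cell cannot be told apart.

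Promoter windows from RefSeq, on build GRCm38.p6 and running from 250 bases before to 50 bases after a start, were available for 9 of the 10 genes. Nos3 had none. 2 of them are shown up to the base before the start. The Klf2 window (chr8:72318812-72319061, plus strand) carried the only match to the MEF2 motif among these genes, which lay 118 bases before the start and is in capitals. MEF2 factors are the known last step from flow to Klf2, and 3.19% of 32851 promoters in the table held such a match. The Ece1 window (chr4:137920543-137920792, plus strand), the last of 4 annotated for this gene, carried the core TGACAG that Meis factors are known to prefer. The core reads on the opposite strand 194 bases before the start and is in capitals.
Klf2: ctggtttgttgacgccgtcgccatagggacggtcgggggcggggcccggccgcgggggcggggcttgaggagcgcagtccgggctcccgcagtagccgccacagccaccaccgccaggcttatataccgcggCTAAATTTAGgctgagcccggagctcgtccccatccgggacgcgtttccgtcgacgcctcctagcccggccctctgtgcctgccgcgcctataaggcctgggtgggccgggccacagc
Ece1: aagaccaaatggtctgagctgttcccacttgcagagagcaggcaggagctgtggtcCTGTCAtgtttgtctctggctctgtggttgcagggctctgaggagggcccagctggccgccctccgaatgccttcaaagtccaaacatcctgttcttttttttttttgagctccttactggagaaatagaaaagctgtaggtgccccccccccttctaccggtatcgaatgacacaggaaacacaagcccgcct
The TGACAG core occurred in a window of 2 members, Ece1 and Cav1, and in 19.2% of all promoters when both strands were searched. The Klf core CACCC was found in a window of 6 of the 9 genes (Klf2, Cav1, Ddah2, Edn1, Ece1 and Ednrb), against 57.5% of all promoters. The AP-1 motif TGANTCA was in none of the 9 genes' windows (7.81% of all promoters), and TATAAA was in a window of Cav1 alone (13.6%). Cav1 had 2 windows and Ece1 had 4, which gives these genes more letters to match. A match is a run of letters in a short window, and binding was not measured.

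Levels per length set the order of the genes. Nos3 was the most abundant in YFP-CTRL EC, at 443 ± 74.3 CPM per kb of exon (SD, n = 3), followed by Klf2 at 276 ± 33.6, Cav1 at 190 ± 29.2 and Klf4 at 115 ± 56.2. Klf6 at 72.6 ± 20.4, Ece1 at 61.7 ± 11.6 and Ddah2 at 36.2 ± 3.89 came next. Ddah1 at 10.2 ± 5.26, Ednrb at 6.10 ± 2.72 and Edn1 at 1.90 ± 0.604 CPM per kb were at the bottom. The libraries of Klf4 overlapped those of Klf6, those of Klf6 overlapped those of Ece1, and those of Ddah1 overlapped those of Ednrb. The order was the same in Meis1-OE EC except that Ddah2, at 39.3 ± 2.55 CPM per kb, came before Ece1, at 36.5 ± 3.71, with overlapping libraries. There the libraries of Klf6 also overlapped those of Ddah2, and those of Ednrb overlapped those of Edn1. Transcripts of the synthase and of Klf2 and Klf4 were thus far more abundant per length than that of the vasoconstrictor precursor.

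**Figure D1:**
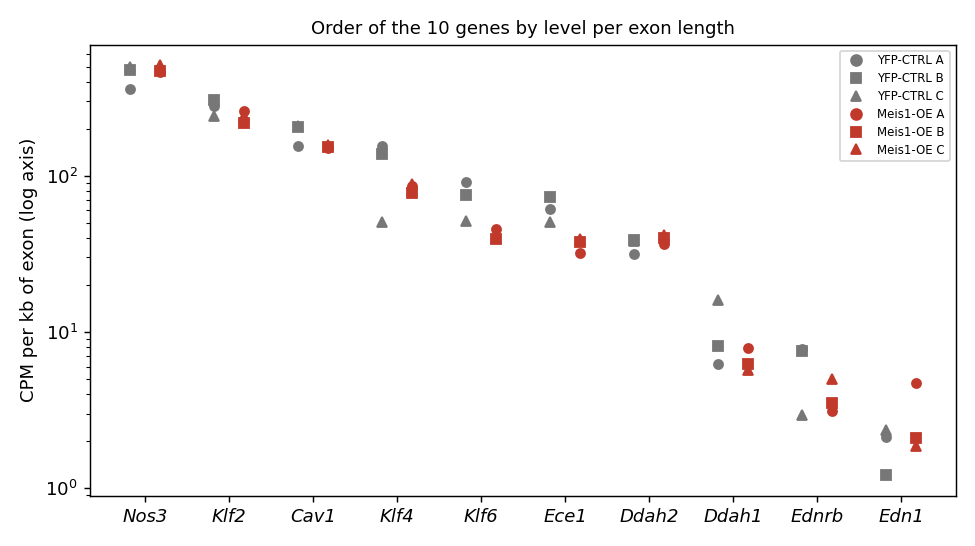
Level of each gene in each library, as TMM-normalized CPM per kb of exon on a log axis, with YFP-CTRL in gray, Meis1-OE in red and a marker shape per column letter. The genes span from Nos3 at 443 CPM per kb to Edn1 at 1.90 CPM per kb in YFP-CTRL EC, and Ece1 and Ddah2 change places in Meis1-OE EC.

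Klf2 is the factor most closely tied to laminar flow. It was at 519, 568 and 445 CPM in YFP-CTRL A, B and C, compared with 479, 399 and 445 CPM in Meis1-OE A, B and C. The groups overlapped, with YFP-CTRL C level with Meis1-OE C. The log2 fold change (Meis1-OE minus YFP-CTRL) was -0.21 with a 95% interval from -0.52 to 0.10 (standard error 0.13, Benjamini-Hochberg adjusted p = 0.347, edgeR).

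Klf4 shares many targets with Klf2. Its level was 476, 421 and 154 CPM in YFP-CTRL A, B and C, compared with 262, 237 and 269 CPM in Meis1-OE A, B and C. The 3 Meis1-OE libraries were close together and lay between YFP-CTRL B and YFP-CTRL C, which was the lowest library of all. The log2 fold change was -0.45 with an interval from -1.32 to 0.41 (adjusted p = 0.473 from edgeR). Leaving out YFP-CTRL C gave -0.82 (adjusted p = 0.00223 from edgeR), while adding each library's proliferation score to the model gave 0.58 (adjusted p = 0.229), so neither the call nor the direction held across these fits. The score is the mean log2 level of 15 proliferation genes and was 4.25, 5.16 and 6.32 in YFP-CTRL A, B and C, compared with 6.33 to 6.39 in Meis1-OE EC. Only YFP-CTRL C came near the Meis1-OE scores, so in the fit with the score the group difference rests largely on this library. By edgeR 0 of the 15 were called (2 at an unadjusted p under 0.05, both higher) and by DESeq2 1 was, with a median log2 fold change of 0.89. All 15 had a value above 0. Without YFP-CTRL C edgeR called 14 of them higher, where 16.5% of all tested genes were higher in that fit.

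Klf6 is a broadly expressed member of the family that injury and growth signals induce. It was at 387, 316 and 216 CPM in YFP-CTRL A, B and C, compared with 192, 167 and 167 CPM in Meis1-OE A, B and C. Every Meis1-OE library was below every YFP-CTRL library, with YFP-CTRL C nearest to them. The log2 fold change was -0.80 (standard error 0.21, 95% interval -1.29 to -0.31, adjusted p = 0.0645 from edgeR, unadjusted p = 0.00576). DESeq2 gave -0.82 with an adjusted p of 0.00927. Without YFP-CTRL C edgeR gave -1.01 with an adjusted p of 0.00224, while adding the proliferation score to the model gave -0.31 (adjusted p = 0.218).

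The ratio of the counts of 2 genes within a library does not depend on how libraries are scaled, and 5 such ratios were computed after the levels had been seen. There were 0.401, 0.418 and 0.376 Klf6 counts per Klf2 count in Meis1-OE A, B and C, compared with 0.746, 0.556 and 0.485 in YFP-CTRL A, B and C. The groups did not overlap, and the log2 difference of -0.56 reached the smallest p that 3 against 3 libraries allow in an exact two-sided permutation test, 0.1 (0.25 after Benjamini-Hochberg adjustment over the 5 ratios). The Klf4 to Klf2 ratio was 0.916, 0.742 and 0.347 in YFP-CTRL A, B and C, compared with 0.547 to 0.606 in Meis1-OE EC, inside the YFP-CTRL range. The Ddah1 to Ddah2 and Ednrb to Ece1 ratios also overlapped, with log2 differences of -0.64 (exact permutation p = 0.3) and 0.20 (exact permutation p = 0.8), and without YFP-CTRL C these were -0.28 and -0.12.

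**Figure D2:**
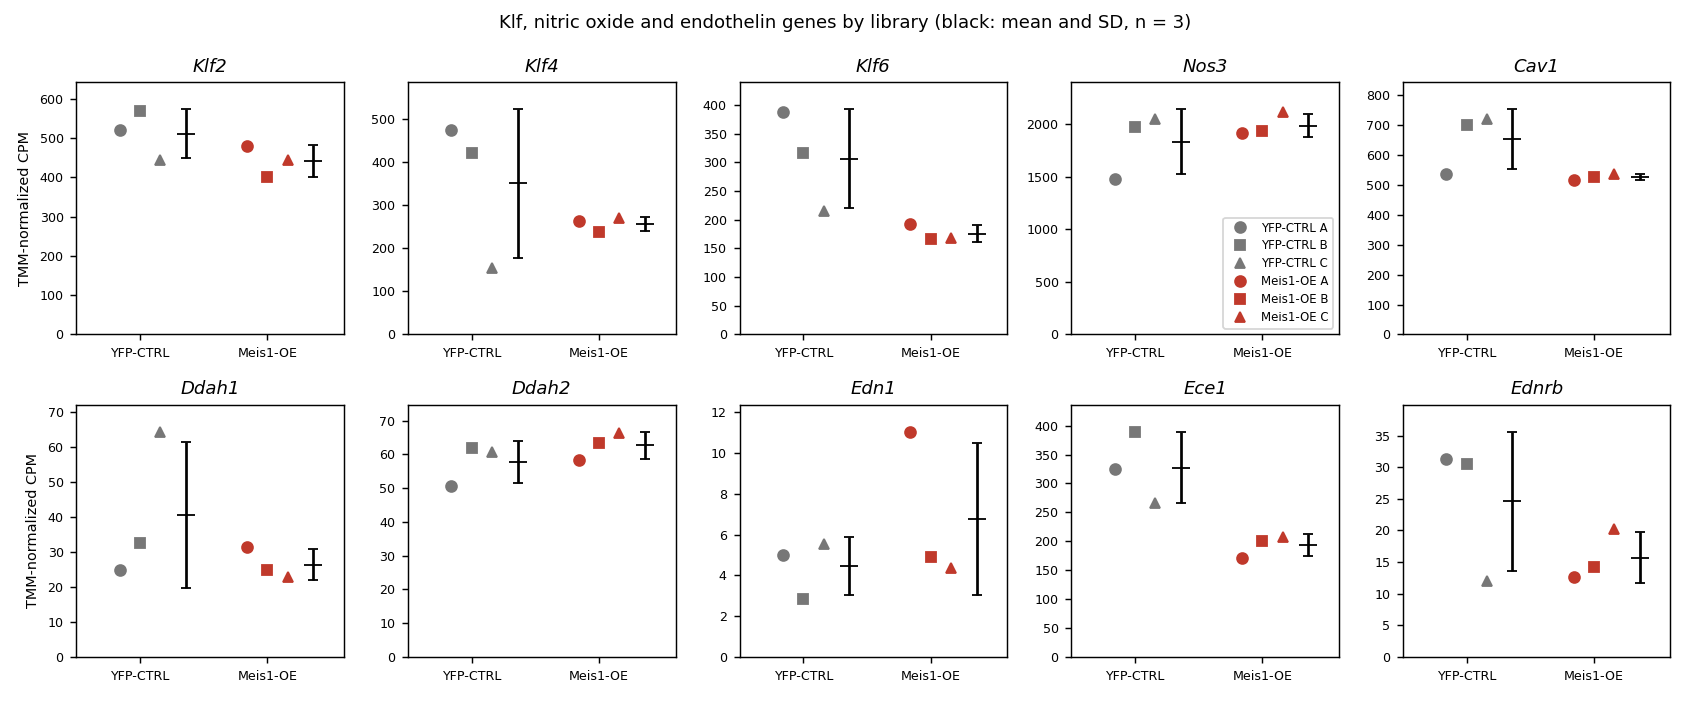
TMM-normalized CPM of the 10 genes in each library on linear axes from 0, with YFP-CTRL in gray, Meis1-OE in red, a marker shape per column letter and black bars for mean and SD (n = 3). The Klf6 and Ece1 libraries of Meis1-OE EC all lie below those of YFP-CTRL EC, and YFP-CTRL C is the lowest library of Klf4 and Ednrb and the highest of Ddah1.

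Nos3, the synthase, was at 1480, 1973 and 2043 CPM in YFP-CTRL A, B and C, compared with 1911, 1934 and 2110 CPM in Meis1-OE A, B and C. YFP-CTRL A was the lowest library and the other 5 lay close together. The log2 fold change was 0.12 with an interval from -0.23 to 0.46 (adjusted p = 0.663 from edgeR). Without YFP-CTRL A it was -0.03. Nos3 overlaps Atg9b by 294 bases in RefSeq and no source says that counting used strand, but Atg9b had only 267 to 530 counts in a library.

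Cav1, its inhibitor, was at 536, 700 and 718 CPM in YFP-CTRL A, B and C, compared with 517, 528 and 537 CPM in Meis1-OE A, B and C. The Meis1-OE libraries sat at the level of YFP-CTRL A, so the groups overlapped. The log2 fold change was -0.31 with an interval from -0.62 to 0.01 (adjusted p = 0.204 from edgeR). Leaving out YFP-CTRL A gave -0.44 (adjusted p = 0.0367 from edgeR).

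Nos3 and Cav1 were both lowest in YFP-CTRL A within that group, and their ratio had the smallest SD on the log2 scale of the 5 ratios in either group. There were 2.76, 2.82 and 2.85 Nos3 counts per Cav1 count in YFP-CTRL A, B and C, compared with 3.70, 3.67 and 3.93 in Meis1-OE A, B and C. The ratio did not overlap between groups, and its relation to cell division was not tested. The means were 2.81 ± 0.0431 and 3.76 ± 0.144 (SD, n = 3), a log2 difference of 0.42. The exact two-sided permutation p was 0.1, the smallest this design allows (0.25 adjusted over the 5 ratios), and the difference was 0.39 to 0.44 with any 1 library left out.

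Ddah1 and Ddah2, which break down asymmetric dimethylarginine, differed in how steady they were. Ddah1 was at 24.7, 32.6 and 64.3 CPM in YFP-CTRL A, B and C, compared with 31.5, 24.8 and 22.9 CPM in Meis1-OE A, B and C. YFP-CTRL C was well above the other 5 libraries, which spanned a similar range in both groups. Its log2 fold change was -0.62 with an interval from -1.42 to 0.18 (adjusted p = 0.293 from edgeR), and it was -0.13 without YFP-CTRL C. Adding the proliferation score to the model gave -1.25 (adjusted p = 0.0188 from edgeR). The pseudogene Rpl36a-ps2 overlaps Ddah1 and had 668 to 1003 counts in a library, and its share of the reads was not separated. Ddah2 was at 50.5, 61.8 and 60.6 CPM in YFP-CTRL A, B and C, compared with 58.3, 63.4 and 66.3 CPM in Meis1-OE A, B and C, with overlapping groups. Its log2 fold change was 0.12 with an interval from -0.17 to 0.41 (adjusted p = 0.576 from edgeR).

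Edn1, the precursor of the peptide endothelin-1, had the lowest mean level of the 10 transcripts in both groups. In Meis1-OE A its level per length, 4.71 CPM per kb, was above that of Ednrb, 3.13. It had 169, 116 and 251 counts in YFP-CTRL A, B and C, or 4.98, 2.84 and 5.52 CPM. It had 505, 222 and 201 counts in Meis1-OE A, B and C, or 11.0, 4.89 and 4.34 CPM. Meis1-OE A was the highest library by far and the other Meis1-OE libraries lay within the YFP-CTRL range. The log2 fold change was 0.60 with an interval from -0.37 to 1.57 (adjusted p = 0.394 from edgeR), and it was 0.06 without Meis1-OE A.

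Ece1 encodes the protease that releases active endothelin-1. It was at 325, 390 and 267 CPM in YFP-CTRL A, B and C, compared with 171, 201 and 208 CPM in Meis1-OE A, B and C. All Meis1-OE libraries were below all YFP-CTRL libraries, and the means were 193 ± 19.6 and 327 ± 61.5 CPM (SD, n = 3). Ece1 fell by 0.76 on the log2 scale to 0.591 of the YFP-CTRL level (standard error 0.16, 95% interval -1.14 to -0.38, adjusted p = 0.0386 from edgeR). It was at -0.58 to -0.90 under the 14 alternative fits and passed the threshold in 7 of them. The adjusted p was 0.143, 0.173 and 0.142 without Meis1-OE A, B and C, 0.0614 and 0.105 without YFP-CTRL A and B, 0.00346 without YFP-CTRL C, 0.0688 with the column letter as a replicate block, 0.143 with the proliferation score in the model and 0.00333 in DESeq2.

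Ednrb, the receptor through which endothelium answers endothelin-1 with nitric oxide and clears the peptide, was at 31.4, 30.6 and 12.0 CPM in YFP-CTRL A, B and C, compared with 12.6, 14.3 and 20.3 CPM in Meis1-OE A, B and C. YFP-CTRL C was the lowest of the 6 libraries, while YFP-CTRL A and B were the highest. The log2 fold change was -0.65 with an interval from -1.51 to 0.22 (adjusted p = 0.309 from edgeR). Leaving out YFP-CTRL C gave -0.99 (adjusted p = 0.0103 from edgeR), and adding the proliferation score to the model gave 0.21.

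**Figure D3:**
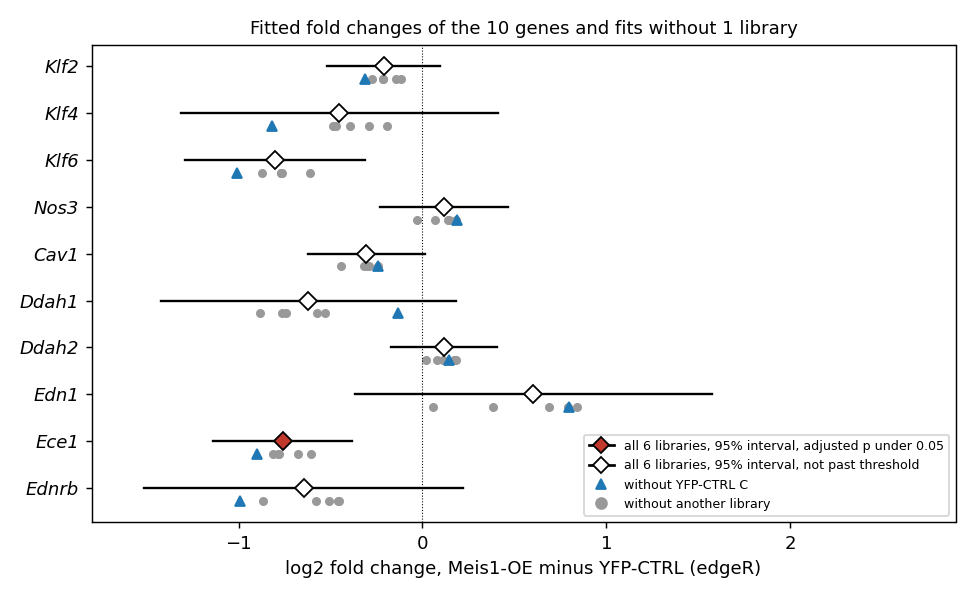
Fitted log2 fold change (Meis1-OE minus YFP-CTRL) of each gene with its 95% interval across all 6 libraries (diamonds, red where the adjusted p is under 0.05), and the value with 1 library left out (blue triangles for YFP-CTRL C, gray circles for each other library). Only Ece1 is red, at -0.76, and leaving out YFP-CTRL C moves Klf4 to -0.82, Ednrb to -0.99 and Ddah1 to -0.13.

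Of the 10 genes, 0 were higher and 1 was lower at an adjusted p under 0.05 from edgeR, where 4.14% of all 16065 tested genes were higher and 2.73% were lower. At an unadjusted p under 0.05 the counts were 0 and 2, where the shares of all tested genes were 12.8% higher and 13.4% lower. In 0 of the 10 did every Meis1-OE library lie above every YFP-CTRL library, and in 2 (Klf6 and Ece1) every one lay below, where the shares of all tested genes were 17.2% and 15.9%. DESeq2 called 0 higher and 2 lower (Klf6 and Ece1), where it called 6.18% of the 18187 genes with an adjusted p higher and 6.13% lower. With so few members, the counts under the unadjusted threshold and of separate groups are near these shares. The median log2 fold change of the 10 was -0.38, against 0.01 over all tested genes, with 3 values above 0 and 7 below.

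The YFP-CTRL libraries spread more than the Meis1-OE libraries for 9 of the 10 genes, all but Edn1, and for 77.9% of all tested genes. The median SD of log2 CPM over the 10 was 0.350 in YFP-CTRL EC and 0.124 in Meis1-OE EC, against 0.243 and 0.111 over all tested genes. YFP-CTRL C was the library farthest from the YFP-CTRL median for 6 of the 10 genes and for 41.3% of all tested genes. YFP-CTRL C was nearer to the Meis1-OE mean than to the mean of YFP-CTRL A and B for 7 of the 10 genes (not for Cav1, Ddah1 and Ece1) and for 60.9% of all tested genes. Without this library 4 members were called lower (Klf4, Klf6, Ece1 and Ednrb) and 0 higher, and the calls over all genes went from 665 higher and 438 lower to 2717 (16.5%) and 2498 (15.2%). The plot against Mki67 sets these patterns side by side.

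**Figure D4:**
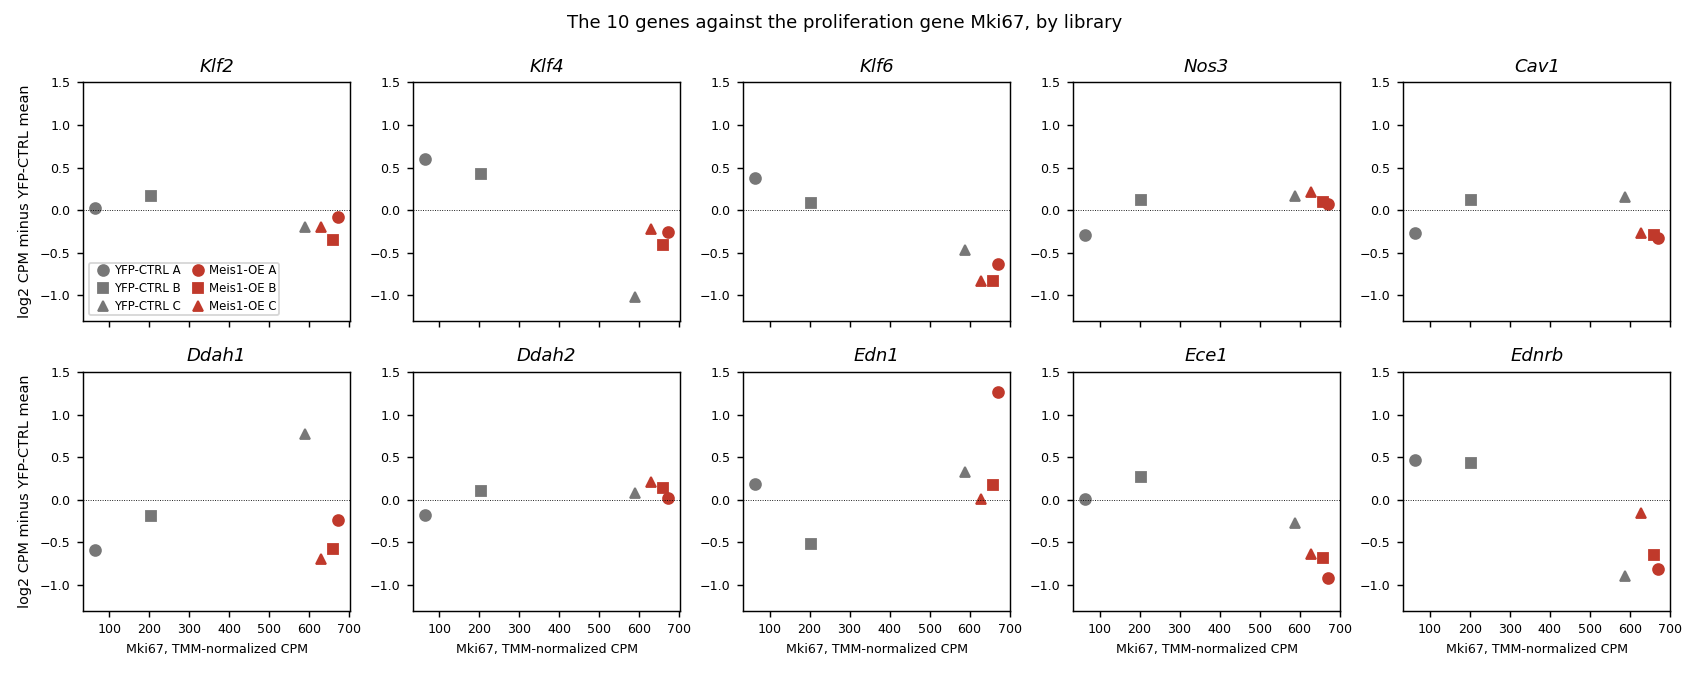
Log2 CPM of each gene minus its YFP-CTRL mean in each library against the CPM of Mki67 in the same library, with YFP-CTRL in gray, Meis1-OE in red and a marker shape per column letter. YFP-CTRL C, at 589 CPM of Mki67, sits beside the Meis1-OE libraries for Klf2 and Nos3, below them for Klf4 and Ednrb, and above them for Cav1, Ddah1 and Ece1.

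Of 14 further Klf genes, 10 were tested, 0 were higher and 2 were lower at an adjusted p under 0.05 from edgeR, with a median log2 fold change of -0.37. Of all tested genes 2.73% were lower. Klf5, a factor of proliferating and remodelling vessel cells, fell by 1.29 on the log2 scale (adjusted p = 0.0287 from edgeR), from 22.0 to 41.5 CPM in YFP-CTRL EC to 11.1 to 15.1 CPM in Meis1-OE EC. Klf16 fell by 0.71 (adjusted p = 0.0460 from edgeR). All 10 tested genes had a value below 0, where 7880 of all 16065 tested genes did, and Klf12 was only at -0.0007. With library totals in place of TMM, which moved the median of all genes to 0.15, 9 of the 10 did and 0 were called. The number below 0 was also 9 with no filter, with at least 10 counts in every library, and without Meis1-OE B, Meis1-OE C or YFP-CTRL A. With the proliferation score in the model 7 of the 10 did, the median was -0.11 and 0 were called. Without YFP-CTRL C all 10 had a value below 0 and 7 were called lower, where 15.2% of all tested genes were lower in that fit.

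Genes that act upstream of Klf2 and Klf4, namely the MEKK3-ERK5-MEF2 cascade, the CCM complex that restrains it and the channel gene Piezo1, gave 1 gene higher and 0 lower of 13 tested, with a median log2 fold change of -0.11. The shares of all tested genes were 4.14% higher and 2.73% lower. Mef2c, one of the MEF2 factors, was at 83.7, 101 and 102 CPM in Meis1-OE A, B and C, compared with 41.4, 49.9 and 67.8 CPM in YFP-CTRL A, B and C. The groups did not overlap, and it rose by 0.85 on the log2 scale (adjusted p = 0.0462 from edgeR). Mef2d, another of these factors, was at 117, 117 and 125 CPM in Meis1-OE A, B and C, compared with 173, 166 and 142 CPM in YFP-CTRL A, B and C, also without overlap. Its log2 fold change of -0.42 missed the threshold (adjusted p = 0.0685, edgeR), and it was called lower by DESeq2 and without YFP-CTRL C. Klf2, whose promoter carries the MEF2 match shown above, did not pass in this comparison.

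Among 9 flow-induced targets of Klf2 and Klf4, 8 were tested, 1 was higher and 1 was lower, with a median of 0.01. The shares of all tested genes were 4.14% and 2.73%. In 3 targets every Meis1-OE library lay above every YFP-CTRL library and in 2 below, where the shares of all tested genes were 17.2% and 15.9%. Without YFP-CTRL C 3 were called higher and 3 lower, against 16.5% and 15.2% of all tested genes. Gja4, the arterial gap junction gene, was at 5.75, 13.1 and 17.4 CPM in Meis1-OE A, B and C, compared with 0.118, 0.245 and 0.616 CPM in YFP-CTRL A, B and C. It rose by 5.14 on the log2 scale (adjusted p = 0.00747 from edgeR) and every Meis1-OE library was far above every YFP-CTRL library. S1pr1, a receptor for sphingosine 1-phosphate that holds endothelial junctions together, fell by 0.93 (adjusted p = 0.0441 from edgeR). The targets that passed, Gja4 and S1pr1, moved in opposite directions. Klf2 and Klf4 themselves did not pass with all libraries, and Klf4 was called lower without YFP-CTRL C (-0.82, adjusted p = 0.00223 from edgeR).

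Of 29 other nitric oxide pathway genes, 20 were tested, 1 was higher and 1 was lower, with a median of -0.03. The shares of all tested genes were 4.14% higher and 2.73% lower. Prmt1, the main enzyme of asymmetric arginine methylation, which is where the Ddah substrate comes from, was at 118, 115 and 122 CPM in Meis1-OE A, B and C, compared with 224, 176 and 164 CPM in YFP-CTRL A, B and C. It fell by 0.67 on the log2 scale (adjusted p = 0.0355 from edgeR), with no overlap between groups. The higher gene was Arg1, at no more than 26 counts in a library. Slc7a1, the arginine transporter, missed the threshold (adjusted p = 0.0952, edgeR) and was singled out after its values were seen: it was at 606, 601 and 158 CPM in YFP-CTRL A, B and C, compared with 163, 163 and 164 CPM in Meis1-OE A, B and C, so YFP-CTRL C sat with the Meis1-OE libraries.

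Of 8 caveola genes other than Cav1, 6 were tested and 1 was higher. For these and for the endothelin and immediate early genes below, the shares of all tested genes were 4.14% higher and 2.73% lower. Cavin3, a coat protein of caveolae, rose by 0.93 on the log2 scale (adjusted p = 0.0460 from edgeR), from 58.3 to 106 CPM in YFP-CTRL EC to 145 to 168 CPM in Meis1-OE EC. Cav2, the partner of Cav1, was at -0.22 (adjusted p = 0.335 from edgeR). Of 6 other endothelin pathway genes 2 were tested and 0 were called. Of 17 immediate early genes, which handling of cells can also induce, 0 were higher and 1 was lower: Fosl1, an AP-1 subunit, fell by 1.36 (adjusted p = 0.0423 from edgeR). Other fits called more of them, and also more of all genes. DESeq2 called 1 higher (Egr2) and 4 lower (Fosl1, Jund, Atf3 and Ier3), where it called 6.18% and 6.13% of all genes with an adjusted p. With library totals 2 were higher (Egr1 and Nr4a1) and 0 lower, where 1048 and 179 of all 16065 tested genes were. Without YFP-CTRL C 1 was higher (Egr1) and 5 were lower, where the shares of all tested genes were 16.5% and 15.2%.

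**Figure D5:**
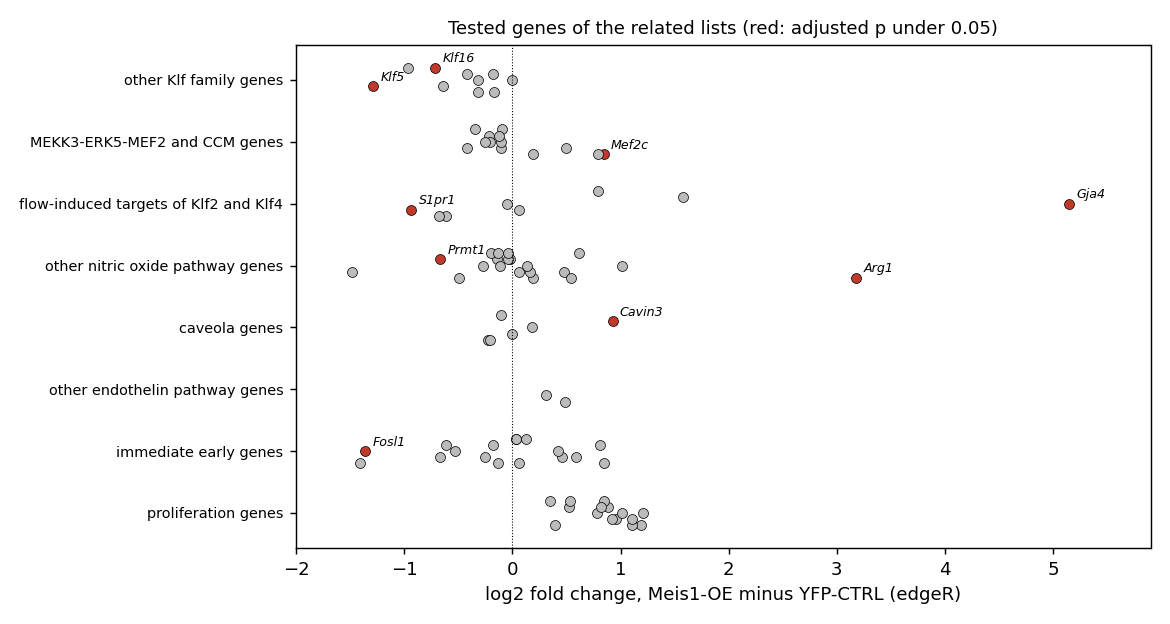
Log2 fold change (Meis1-OE minus YFP-CTRL) of each tested gene of the related lists, 1 row of points per list, in red and named where edgeR's adjusted p is under 0.05. Few genes of any list pass, Gja4 lies farthest to the right at 5.14 and Klf5 and Fosl1 are the lowest of the named genes.

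Of the alternative fits, Gja4 passed in 12 of 13, Cavin3 in 9 of 14, Klf5 and Mef2c in 8, Prmt1 in 7, S1pr1 and Fosl1 in 6 and Klf16 in 5. None of these 8 changed direction in any of them, and all 8 missed the threshold without YFP-CTRL B (adjusted p = 0.0515 to 0.153 from edgeR). All but Gja4 also missed it without Meis1-OE A (0.0738 to 0.151), B (0.154 to 0.203) or C (0.142 to 0.203). The fold changes moved little in most fits with 1 library left out. Without YFP-CTRL B they were 4.96 for Gja4, -1.31 for Klf5, 0.94 for Cavin3, 0.81 for Mef2c, -0.73 for Klf16 and -0.70 for Prmt1. They were further from the full fit for S1pr1 (-0.71) and Fosl1 (-1.05). With the proliferation score in the model all 8 were smaller in size than in the full fit. Klf5 was at -0.75, Cavin3 at 0.51, Mef2c at 0.49 and Klf16 at -0.38. Prmt1 was at -0.42, S1pr1 at -0.60 and Fosl1 at -0.76. Of the 8 only Gja4 passed in that fit (adjusted p = 0.0263 from edgeR), and the others missed the threshold (0.0595 to 0.215).

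Genes whose log2 CPM followed a member most closely over the 6 libraries were sought among 10222 genes with a mean of at least 5 CPM. The 3 nearest to Klf2 were Syvn1, Rnf123 and Osbpl7 (Pearson r 0.992, 0.986 and 0.980), and those nearest to Klf4 were Map3k13, Cebpb and Mon2 (0.993, 0.991 and 0.991). Nos3 was followed by Nedd1, Vsig10 and Ocel1 (0.998, 0.998 and 0.997), and Edn1 by Gm44660, Med4 and Gm45457 (0.990, 0.989 and 0.987). With 6 points from 2 conditions and so many genes searched, values this high describe these libraries only.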

How the data were processed

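For 6 libraries the authors deposited 1 table of estimated counts by gene symbol, without normalization, in which every row named a gene. The build was mm10, per the submitters' processing notes. The aligner, the counting program, the annotation and the strand setting are not given in the sources used here. Counts were rounded to whole numbers.

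Tests were run in R 4.3.3 with edgeR 4.0.16 (filterByExpr, TMM and the quasi-likelihood test on all 6 libraries, group as the only term), and adjusted p-values are Benjamini-Hochberg values over all tested genes with a threshold of 0.05. Intervals of log2 fold changes came from the same fit. DESeq2 1.42.0, other scalings, filters and thresholds, the proliferation score as a covariate, the column letter as a replicate block and each library left out in turn were the alternatives. Programs were first tested on simulated data. Figures were drawn with matplotlib.

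Named genes were the 10 members, up to 4 genes per related list and direction that passed it at 5 CPM or more on average, and the 3 genes most correlated with each of Klf2, Klf4, Nos3 and Edn1, on log2(CPM + 0.5). The members, lists and rule were chosen with earlier results of these data known. The 5 ratios and the genes Vwf, Cldn5, Tek, Cdh5, Kdr, Lyve1, Flt4, Prox1, Acta2, Mef2d, Slc7a1 and Cav2 were picked after values were seen. Levels per kb used exon lengths of GENCODE M1 on NCBIM37, matched by symbol, and positions and promoters came from RefSeq on GRCm38.p6. Reads carry no molecular identifiers, so totals of 34176592 to 47956569 counts describe counting precision only.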

Additional observations from a re-analysis of the deposited data

How the results depend on the processing

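The count of members called higher was 0 in every fit run. The count called lower was 1 by default, 0 with the column letter as a replicate block, 2 in DESeq2 or at an adjusted p under 0.1, 0 at an adjusted p under 0.01, and 0 to 4 with 1 library left out (4 without YFP-CTRL C, 1 without YFP-CTRL A, which was Cav1, and 0 without any other). With the proliferation score it was 1, which was Ddah1. The letters pair no libraries by any source. Same-letter deviations correlated at 0.262, 0.174 and 0.0844, and different-letter deviations at -0.301 to 0.248.

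Over all genes, 665 were higher and 438 lower. The counts were 544 and 189 with the replicate block, 1048 and 179 with library totals, 383 and 317 with the proliferation score, 1124 and 1115 in DESeq2, 1138 and 1073 at an adjusted p under 0.1, 168 and 40 at an adjusted p under 0.01, and 115 to 2717 higher and 16 to 2498 lower with 1 library left out. The share of calls that were higher was 60.3%, against 85.4% with library totals.

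The proliferation score turned the direction of Klf4 (0.58), Nos3 (-0.12), Ddah2 (-0.011) and Ednrb (0.21), none of which had passed. That fit leans on YFP-CTRL C, the only control library with a score near those of Meis1-OE EC. Without single libraries Nos3 ran from -0.031 (without YFP-CTRL A) to 0.19. The other alternatives kept the direction of all 10. Edn1 had the fewest counts of the 10, 116 to 505 in a library. The cause of these shifts was not tested.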
